A study of Homo sapiens with 6 samples.

Results

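MAP1B, 4 other structural microtubule-associated proteins (MAP1A, MAP1S, MAP4 and MAP7) and 5 beta-tubulins (TUBB2A, TUBB2B, TUBB3, TUBB4B and TUBB6) were followed by name through a table of 27914 genes. These 10 genes were chosen by their TPM in the study's groups, with the difference between the groups already known, so their differences are given as a description and without a test. RNA was sequenced in 6 libraries of MCF10A, a human mammary epithelial line that grows indefinitely without forming tumours. The controls (SCRin, wild-type) and the cells of genotype ⍺-/-;βin had 3 libraries each. All 6 samples received doxycycline for 3 days, the controls included. The cells of genotype ⍺-/-;βin are called depleted cells here, since the series title names the PI5P4K enzymes and ⍺ and β were read as those encoded by PIP4K2A and PIP4K2B. The labels do not expand SCR or in, and do not say whether the ⍺-/- cells are 1 clone. They also leave unsaid whether replicates were separate cultures, so a p-value here reflects only the spread among these libraries, which may be technical.

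Microtubules are polymers of alpha- and beta-tubulin dimers. Structural microtubule-associated proteins bind along the polymer and change its stability, its bundling and its traffic by motors. MAP1B is best known from growing axons, where it keeps microtubules dynamic, MAP4 is the main such protein outside the nervous system, and beta-tubulin isotypes differ mostly in their acidic carboxy-terminal tails, which project from the microtubule and are read by motors and modifying enzymes. Cells also control tubulin mRNA by feedback, in which TTC5 recognises the first amino acids of nascent tubulin and marks the mRNA for decay when free tubulin is abundant.

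The coding starts carry the part of the tubulin message that this feedback reads, and they are shown because all these genes share it. Each is the first 24 coding bases of the principal transcript in GENCODE v29 (GRCh38), 5′ to 3′, with the first 4 codons in capitals. TUBB2A and TUBB2B lie on chromosome 6, TUBB3 on chromosome 16, TUBB4B on chromosome 9 and TUBB6 on chromosome 18.
TUBB2A: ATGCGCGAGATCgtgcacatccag
TUBB2B: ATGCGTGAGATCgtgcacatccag
TUBB3: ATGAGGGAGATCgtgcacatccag
TUBB4B: ATGAGGGAAATCgtgcacttgcag
TUBB6: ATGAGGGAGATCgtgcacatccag
The 4 codons are spelled in 4 ways and in every case encode the same amino acids.

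The coding ends, which encode the tail, are shown because they differ between most of these isotypes, TUBB2A and TUBB2B excepted, and show how far short reads can separate them. Each is the last 60 coding bases with the stop codon. Capitals in TUBB2A and TUBB2B mark bases at which these genes differ from each other, and in the others bases that differ from TUBB2A at the same place counted from the stop codon.
TUBB2A: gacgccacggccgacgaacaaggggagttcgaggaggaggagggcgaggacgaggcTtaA
TUBB2B: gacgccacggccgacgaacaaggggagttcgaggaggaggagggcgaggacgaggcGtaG
TUBB3: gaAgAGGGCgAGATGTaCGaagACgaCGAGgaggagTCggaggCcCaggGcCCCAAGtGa
TUBB4B: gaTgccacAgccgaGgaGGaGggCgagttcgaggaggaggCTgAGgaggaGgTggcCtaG
TUBB6: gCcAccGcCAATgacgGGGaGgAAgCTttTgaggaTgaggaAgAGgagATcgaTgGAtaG
TUBB2B differed from TUBB2A at 2 of these 60 bases, TUBB4B at 15, TUBB6 at 26 and TUBB3 at 32. Over the whole coding sequence TUBB2A and TUBB2B were 98.1% identical, with 25 mismatched bases, while every pair that joins either of them to TUBB3, TUBB4B or TUBB6 was 86.2% to 88.7% identical.

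Reads of the paralogs are therefore not equally separable. Of all 50-base windows in the TUBB2A transcript, 60.3% also occurred in TUBB2B transcripts, and 47.3% of TUBB2B windows occurred in TUBB2A. For TUBB3, 89.4% of windows also occurred in a longer transcript on the same strand that GENCODE lists as a separate gene and that covers most TUBB3 exons, and 8.26% in TUBB2A. TUBB4B shared 9.89% of its windows with other genes and TUBB6 0.993%. TUBB, a beta-tubulin outside the chosen genes, shared 18.2%, and 16.1% of its windows occurred in TUBBP1. MAP1B, MAP1A, MAP1S, MAP4 and MAP7 shared none. Windows were compared in the same orientation only. Genes on the opposite strand overlap exons of MAP1S (6.35% of the transcript), MAP7 (3.83%) and TUBB4B (7.57%), and whether the libraries were stranded is not given. The sources used here do not say how the deposited values divided such reads, so the split between TUBB2A and TUBB2B is uncertain, as is the part of the TUBB3 value that belongs to the longer transcript.

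The MAP1 proteins form a family of their own, made as long precursors that are cut into a heavy and a light chain. Their coding ends, which encode the end of the light chain, are shown so that the family can be compared there. Likeness over the rest of the coding sequence was not measured. MAP1B is printed in lower case, and capitals in its relatives mark bases that differ from MAP1B at the same place counted from the stop codon. MAP1B is encoded on chromosome 5, MAP1A on chromosome 15 and MAP1S on chromosome 19.
MAP1B: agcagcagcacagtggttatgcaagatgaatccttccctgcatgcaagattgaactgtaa
MAP1A: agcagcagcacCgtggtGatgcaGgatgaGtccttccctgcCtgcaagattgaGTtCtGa
MAP1S: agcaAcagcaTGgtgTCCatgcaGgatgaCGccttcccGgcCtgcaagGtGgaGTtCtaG
MAP1A differed from MAP1B at 9 of these 60 bases and MAP1S at 17. The precursors encoded differ in length, with 2468 codons in MAP1B, 2803 in MAP1A and 1059 in MAP1S.

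Expression was deposited as TPM, transcript abundance scaled for transcript length and to the same total in each library, so levels of different genes can be set side by side. The read depth behind each value is unknown, since TPM does not keep it. Between 11859 and 12116 genes reached 1 TPM in a library. The 12096 genes with a mean of 1 TPM or more passed the filter and were tested with limma, a linear model that shares the estimate of spread across genes, with p-values adjusted over all of them. The targeted genes followed the labels: PIP4K2A measured 19.8 to 21.7 TPM in controls and 4.09 to 4.35 TPM in depleted cells, and PIP4K2B 20.8 to 23.1 and 8.20 to 11.6 TPM. The cells carried basal epithelial markers, with 1169 to 2214 TPM summed over 7 genes in controls and 1966 to 2521 TPM in depleted cells. KRT5, a basal keratin, averaged 667.8 and 961 TPM. Groups did not overlap for 4 of the 7 basal genes, all higher in depleted cells, against 5.64% of all tested genes that were higher without overlap. None of the 7 passed limma's adjusted threshold. EPCAM, an epithelial adhesion protein chosen after its values were seen, rose from 10.02 ± 0.791 to 49.5 ± 5.46 TPM (SD, n = 3; limma adjusted p = 0.000847). It was the only call among 4 tested luminal markers. KRT18, the most abundant of these, averaged 449 and 437 TPM (log2 difference -0.04). KRT8 averaged 226 and 183 TPM (-0.34) and GATA3 6.14 and 6.45 TPM (0.06). The part of these markers in the results that follow was not tested. Of 14 fibroblast, blood and endothelial markers only CD68, DCN and COL1A1 passed the filter, and COL3A1 and PTPRC were listed at 0 in all 6 libraries.

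MAP1B was far lower in depleted cells than in controls. Control replicates 1 to 3 measured 11.8, 10.7 and 14.8 TPM, and depleted replicates 1 to 3 measured 2.43, 0.811 and 1.68 TPM. Every control library stood well above every depleted library. The means were 12.4 ± 2.15 and 1.64 ± 0.809 TPM (SD, n = 3), or 13.2% of control. The difference in log2(TPM + 1), a scale that understates changes of low values, was -2.38 (SE 0.26), at rank 16 from the lowest of 12096 tested genes. It ranged from -2.59 to -2.13 when any 1 library was left out.

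MAP1B also dropped out of the order of levels it held in controls. In controls it stood between MAP7 and MAP1S, with no overlap between the libraries of these neighbours. In depleted cells it stood below MAP1S, again without overlap, and its range overlapped that of TUBB2B, at 0.874 to 0.949 TPM. Of the TPM summed over the 5 microtubule-associated proteins, MAP1B took 9.42% ± 0.663 in controls and 1.34% ± 0.604 in depleted cells (SD, n = 3). In bulk RNA, fewer cells that express a gene and less RNA per cell cannot be told apart.

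**Figure D1:**
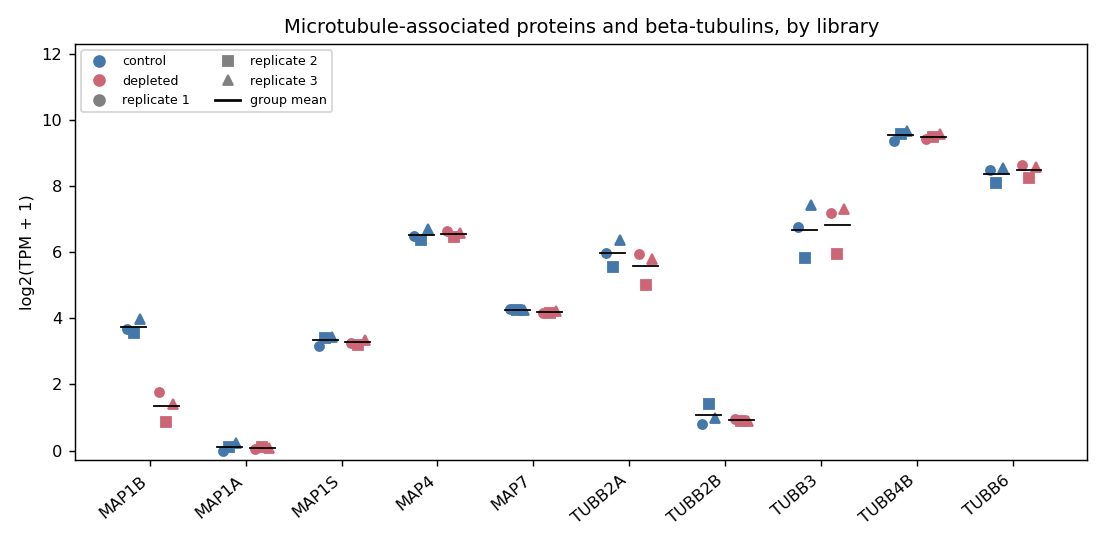
Expression of the 10 genes in each library, as log2(TPM + 1) on the vertical axis. Blue points are control libraries, red points depleted libraries, the marker shape gives the replicate number and black lines are group means. The red MAP1B points (0.811 to 2.43 TPM) lie apart from the blue ones (10.7 to 14.8 TPM), while for the other genes the group means lie much closer. Of these, TUBB2A has the largest distance (log2 difference -0.39, SE 0.29), with overlapping groups.

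The genes next to MAP1B did not pass the test. MCCC2, a mitochondrial carboxylase subunit and the nearest tested gene before MAP1B in the RefSeq order of chromosome 5, averaged 35.9 ± 5.91 TPM in controls and 42.2 ± 5.02 TPM in depleted cells (SD, n = 3; log2 difference 0.23, limma adjusted p = 0.631). MRPS27, a mitochondrial ribosomal protein gene and the nearest tested gene after it, averaged 66.4 ± 8.89 and 74.1 ± 10.9 TPM (log2 difference 0.15, adjusted p = 0.769). Both point estimates lay above 0, and the groups overlapped for each. Long stretches of chromosomes 7 and 3 were lower in depleted cells, with median log2 differences of -0.91 and -0.81, and none of the 10 genes lies within them.

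MAP1B is best known from neurons, and a list of 10 neuronal markers, which holds none of the chosen genes, was almost unread in both groups. Of these 10 markers none passed the filter of 1 TPM on average, 4 were listed at 0 in all 6 libraries, and their summed level was 0.384 to 0.410 TPM in controls and 0.261 to 0.607 TPM in depleted cells. SYN1, a synaptic vesicle protein gene and the highest of them, ranged from 0 to 0.607 TPM. GAP43, a growth cone protein gene, was listed at 0 in 5 libraries and at 0.0220 TPM in control replicate 3. MAP1B in controls was thus far above every one of these markers.

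The relatives of MAP1B differed much less between the groups. MAP1S, the widely expressed short member of the MAP1 family, measured 8.02, 9.63 and 9.76 TPM in controls and 8.64, 8.15 and 9.18 TPM in depleted cells. The groups overlapped, and the log2 difference was -0.07 (SE 0.12), or 94.7% of control. MAP1A, the member typical of mature neurons, was listed at 0, 0.0692 and 0.161 TPM in controls and at 0.0391, 0.0876 and 0.0449 TPM in depleted cells. It lay below the filter, so no fold is given. Neither relative stood clearly higher in depleted cells, where MAP1B was low.

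MAP4, which stabilises interphase and spindle microtubules in many cell types, was the most abundant of the 5 structural proteins. It measured 88.4, 82.3 and 103.1 TPM in controls and 98.0, 86.5 and 95.1 TPM in depleted cells, with overlapping groups and a log2 difference of 0.03 (SE 0.11). MAP7, which recruits the motor kinesin-1 to microtubules, measured 18.5, 17.96 and 18.2 TPM in controls and 16.8, 16.8 and 17.7 TPM in depleted cells. These groups did not overlap, but the distance was small, with a log2 difference of -0.09 (SE 0.09) and 93.9% of control. The SEs given for the chosen genes come from limma, which shares spread across genes, so they can exceed what a gene's own SD would give. MAP7 was very even within groups: its within-group SD of 0.03 on the log2 scale was below that of all but 0.595% of tested genes.

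Of the 5 chosen beta-tubulins, TUBB4B and TUBB6 had the highest levels and held nearly the same level in both groups. TUBB4B, the broadly expressed class IV isotype also built into cilia, measured 663, 768 and 819 TPM in controls and 683, 712 and 770.1 TPM in depleted cells. The groups overlapped throughout (log2 difference -0.05, SE 0.10). TUBB6, the class V isotype, measured 355, 269.8 and 372 TPM in controls and 394, 299 and 378 TPM in depleted cells. These groups overlapped as well (log2 difference 0.11, SE 0.16).

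TUBB3, the class III isotype used as a neuronal marker, was listed at 55.7 TPM or more in every library, of which the part due to the overlapping longer transcript is uncertain, and varied more within a group than between groups. It measured 106.6, 55.7 and 171 TPM in controls and 144.9, 60.3 and 158.9 TPM in depleted cells. The libraries numbered 2 were the lowest of each group, and the ranges overlapped almost fully. The log2 difference was 0.15 (SE 0.49), and it moved between -0.27 and 0.59 when 1 library was left out. The within-group SD of 0.78 on the log2 scale exceeded that of 96.9% of tested genes, for which the median was 0.18.

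TUBB2A and TUBB2B, near-identical isotypes prominent in neurons, lie side by side on chromosome 6 and stood at very different levels. TUBB2A measured 61.9, 46.2 and 81.3 TPM in controls and 60.8, 30.9 and 54.2 TPM in depleted cells, with overlapping groups (log2 difference -0.39, SE 0.29). TUBB2B measured 0.742, 1.67 and 0.991 TPM in controls and 0.949, 0.877 and 0.874 TPM in depleted cells (log2 difference -0.14, SE 0.26). It passed the filter only narrowly, with 1.13 TPM on average in controls and 0.900 in depleted cells. With both paralogs summed to 1 value, the log2 difference was -0.39 (SE 0.29).

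In controls the 10 genes ran, from high to low, TUBB4B, TUBB6, TUBB3, MAP4, TUBB2A, MAP7, MAP1B, MAP1S, TUBB2B and MAP1A. In depleted cells MAP1S and MAP1B stood in swapped places and the rest kept the order. Only TUBB3 and MAP4 had overlapping ranges among neighbours in controls, and in depleted cells TUBB3 with MAP4 and MAP1B with TUBB2B. The point estimates of MAP1S, MAP4, TUBB3, TUBB4B and TUBB6 each crossed 0 under at least 1 alternative, so no direction is read from them.

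**Figure D2:**
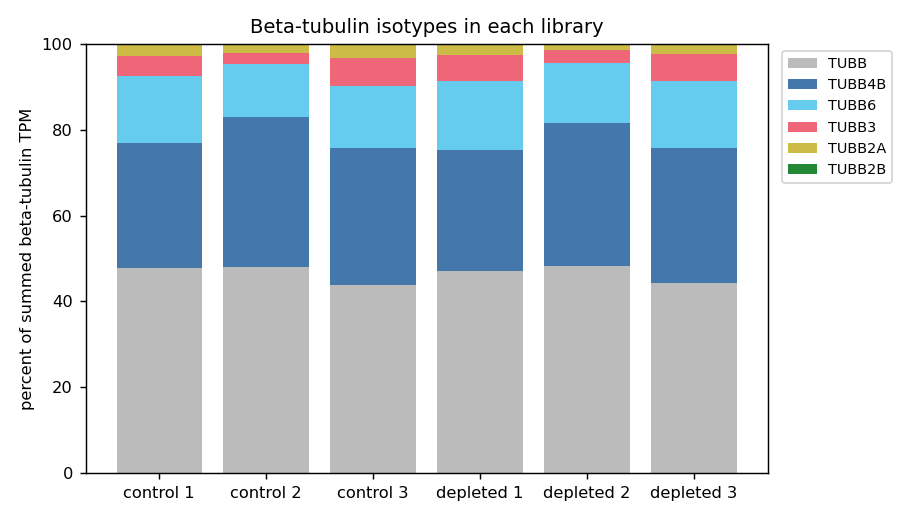
Share of each isotype in the summed beta-tubulin TPM of a library, in percent, with 1 bar per library. Shares of TUBB2B are at most 0.0761% and too thin to see, and TUBB1, TUBB4A and TUBB8, each under 0.01%, are not drawn. The bars resemble each other across groups, and TUBB3 takes 2.54% and 2.83% in the libraries numbered 2 against 4.68% to 6.66% in the others.

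The mixture of beta-tubulins was alike in both groups. Their summed level was 2350 ± 199.95 TPM in controls and 2335 ± 179 TPM in depleted cells (SD, n = 3). TUBB, the ubiquitous class I isotype, supplied 46.6% ± 2.35 and 46.5% ± 1.97 of it. TUBB4B supplied 31.96% ± 2.93 and 31.0% ± 2.69, TUBB6 14.1% ± 1.67 and 15.2% ± 1.09, TUBB3 4.62% ± 2.06 and 5.10% ± 1.98, and TUBB2A 2.66% ± 0.530 and 2.06% ± 0.544. The shares of each of these isotypes overlapped between the groups. All these shares depend on how reads common to several genes were divided, which is not known.

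Across all genes, limma called 265 of 12096 tested genes (2.19%) at an adjusted p under 0.05, 221 lower (1.83%) and 44 higher (0.364%). Of the 10 genes, 9 passed the filter and 1 of these, MAP1B, was called. That count comes from the contrast by which the genes were chosen, so nothing is read from it. Groups did not overlap for MAP1B and MAP7, both lower, against 11.4% of all tested genes that did not overlap and were lower and 5.64% that were higher. The median log2 difference of the 9 genes was -0.07, against -0.01 over all tested genes. The number of calls over all genes fell to 106 without control replicate 3, to 163 without depleted replicate 1 and to 119 without depleted replicate 3.

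The rest of the microtubule system was looked up in 11 lists of 146 genes, of which 122 passed the filter. Of these 122, 2 fell, 0 rose and 120 did not pass limma's adjusted threshold, with a median log2 difference of -0.02. Over all tested genes the share called was 2.19%. An unadjusted limma p under 0.05 was reached by 5 of the 122, against 1438 of 12096 over all tested genes, a larger share. Among the 120, these were DST, TTLL7 and KIF5B. Groups did not overlap for 14 of the 122 genes (11.5%), 11 lower and 3 higher, against 17.1% of all tested genes.

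FIGNL1, a member of the family of microtubule-severing ATPases that also acts in DNA repair, fell from 20.1, 18.4 and 19.2 TPM to 9.57, 9.17 and 8.29 TPM (log2 difference -1.02, SE 0.10, limma adjusted p = 0.00561). CCT6A, a subunit of the chaperonin that folds tubulin and actin, fell from 728, 792 and 776 TPM to 373, 404 and 389.9 TPM (log2 difference -0.97, SE 0.08, adjusted p = 0.00396). In both genes every control lay far above every depleted library. Both lie in the stretch of chromosome 7 that runs from FAM20C through CHCHD2, known from earlier results of these data, in which 128 of 196 tested genes were called and the median log2 difference was -0.91. The FIGNL1 call was lost without both libraries numbered 2 (adjusted p = 0.0635, over all alternatives 0.00311 to 0.0635).

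**Figure D3:**
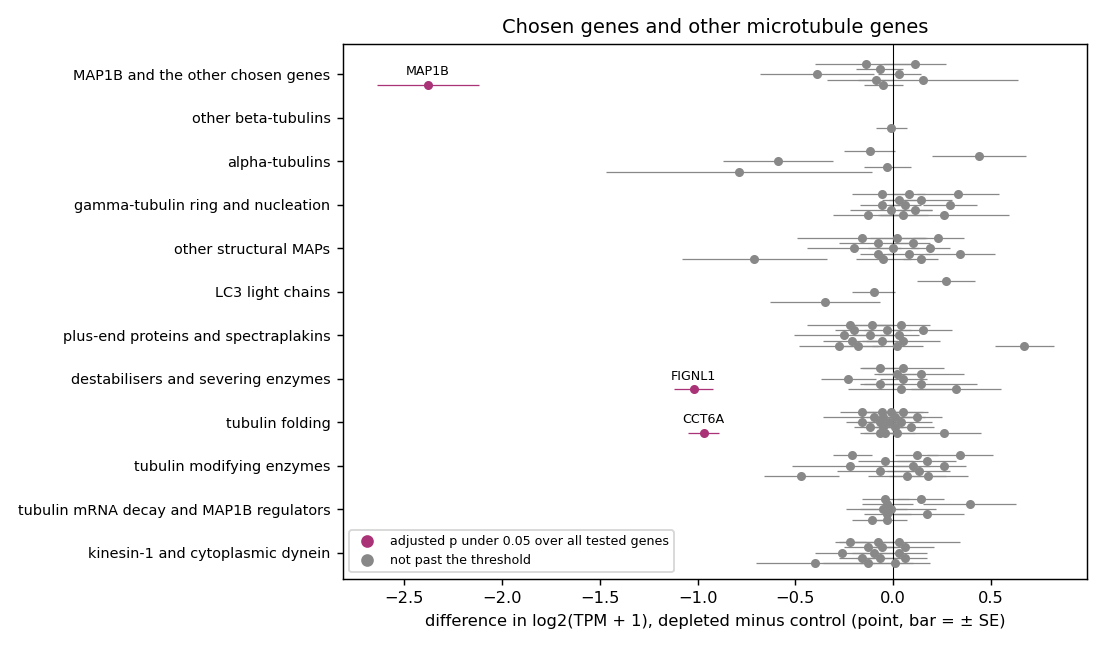
Difference in log2(TPM + 1), depleted minus control, for the 9 chosen genes that passed the filter and for the tested genes of 11 microtubule lists, with bars of 1 SE. Purple points passed an adjusted p under 0.05 over all tested genes. MAP1B was chosen with this contrast known, so its colour is not read as a test. MAP1B at -2.38, FIGNL1 at -1.02 and CCT6A at -0.97 stand to the left, and the others lie between -0.79 and 0.67.

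The folding machinery for tubulin gave that 1 call among 21 tested genes, and 20, the other 7 subunits of the chaperonin among them, did not pass. Of the destabilising and severing proteins, 10 of 11 did not pass, FIGNL1 being the exception. Over all tested genes 2.19% were called, so counts in lists this short say little about a class. CCT3, another chaperonin subunit and the highest of the folding genes by mean, averaged 665 and 676 TPM (chosen after its values were seen; log2 difference 0.02, 95% interval -0.18 to 0.22).

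Tubulins outside the chosen genes gave no call, where 2.19% of all tested genes were called. At that share, lists this short would often hold none. TUBB averaged 1092 ± 37.8 TPM in controls and 1085 ± 59.6 TPM in depleted cells (SD, n = 3; log2 difference -0.01, 95% interval -0.20 to 0.18). All 5 tested alpha-tubulins missed the threshold, with a median of -0.12. TUBA1B, the most abundant, averaged 1953 ± 272 and 1788 ± 175 TPM (log2 difference -0.12, 95% interval -0.43 to 0.19). Of 13 nucleation genes, those of the gamma-tubulin ring and its partners, 0 passed, and MZT2B, the highest, averaged 147 and 154 TPM.

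Binding proteins and motors likewise did not pass the threshold, which 2.19% of all tested genes passed. The counts therefore do not show that a class was unchanged. Of 14 other structural microtubule-associated proteins 0 passed, with MAP7D1, a relative of MAP7, at 134 and 129.7 TPM. Of 3 LC3 genes, whose products bind MAP1 proteins and mark autophagosomes, 0 passed, with MAP1LC3B at 86.8 and 80.6 TPM. Of 16 plus-end proteins and spectraplakins 0 passed, with MAPRE1, which tracks growing ends, at 156 and 144 TPM. Of 15 genes of kinesin-1 and dynein 0 passed, with DYNLL1, a dynein light chain, at 777 and 650.5 TPM.

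Genes that modify tubulin or act on MAP1B and tubulin RNA were also without calls, against 2.19% called over all tested genes. These lists too are short, so little is read from the counts. Of 13 tested modifying enzymes 0 passed, with TTLL12 at 39.6 and 50.2 TPM. Of 10 regulators 0 passed, with GSK3A, the paralog of the MAP1B kinase GSK3B, at 54.5 and 52.7 TPM. FMR1, whose product represses MAP1B translation, averaged 27.5 ± 3.13 and 26.8 ± 2.47 TPM (SD, n = 3), and TTC5 12.2 ± 2.99 and 13.7 ± 1.92 TPM. FMR1 and TTC5 were chosen after their values were seen.

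Several tubulins shared a pattern over replicate numbers that differed from the group comparison. Of the 9 chosen genes that passed the filter, MAP1B, MAP4, TUBB2A, TUBB3 and TUBB6 were lowest in the library numbered 2 of both groups, as were 16.4% of all tested genes. TUBA1A and TUBA4A, alpha-tubulins chosen after their values were seen, did the same. So did TUBB, by a small distance, and TUBAL3, an alpha-tubulin at 1.18 to 3.48 TPM. The abundant tubulins TUBB4B, TUBA1B and TUBA1C did not: each was lowest in the library numbered 1 of both groups. TUBA1C, for example, measured 758, 911 and 976 TPM in controls and 807, 851 and 916 TPM in depleted cells. TUBA1A measured 112.5, 33.7 and 110.6 TPM in controls and 72.2, 15.7 and 68.5 TPM in depleted cells, and TUBA4A 355, 246 and 415 TPM and 259, 148 and 277 TPM. The ranges of the groups overlapped for both (log2 differences -0.79 and -0.59, limma adjusted p = 0.741 and 0.498). The labels do not say what the replicate numbers share.

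**Figure D4:**
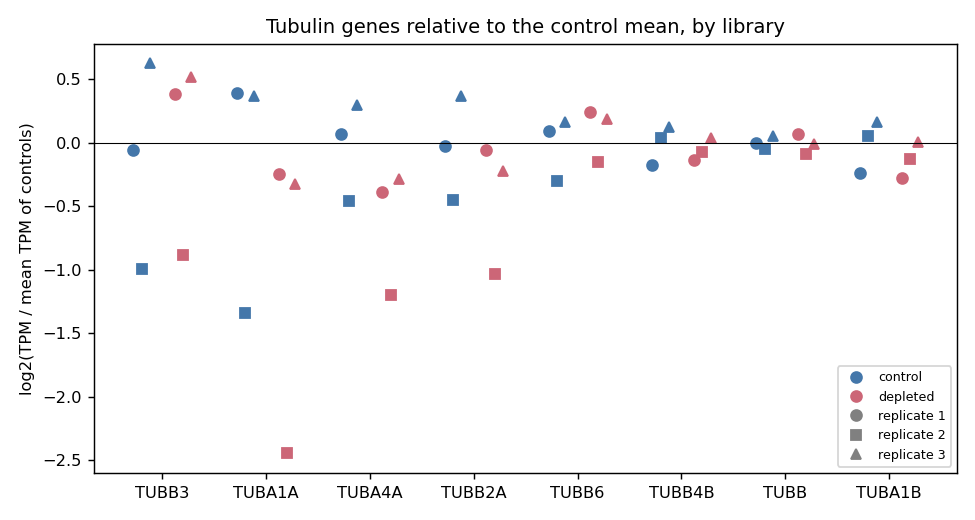
Tubulin genes in each library as log2 of the ratio of TPM to the mean of the controls. Blue points are controls, red points depleted libraries, and the marker shape gives the replicate number. Squares, the libraries numbered 2, lie lowest in both groups for TUBB3, TUBA1A, TUBA4A, TUBB2A, TUBB6 and, by a small distance, TUBB. Within-group SDs of log2(TPM + 1) were 0.07 for TUBB, 0.13 for TUBB4B and 0.18 for TUBA1B, against 0.23 for TUBB6 and 1.1 for TUBA1A.

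Genes whose levels most resembled those of MAP1B over the 6 libraries were sought among 9719 others with a mean of at least 5 TPM, by Pearson's r of log2(TPM + 1), given as a description over 6 libraries that fall into the study's groups. They were BACE1, a membrane protease (r = 0.998), YKT6, a vesicle fusion protein (0.996), TWF2, an actin-binding protein (0.996), the pseudogene RNF216P1 (0.995) and KLHL20, a ubiquitin ligase adaptor (0.995). BACE1 averaged 20.7 TPM in controls and 10.2 TPM in depleted cells, a smaller relative distance than that of MAP1B. YKT6 and RNF216P1 lie in the lowered stretch of chromosome 7 and TWF2 in that of chromosome 3, while BACE1 and KLHL20 lie outside both. TUBB2B and MAP1A lay below 5 TPM and were not compared. Among the other chosen genes MAP7 was nearest to MAP1B (r = 0.84) and TUBB6 farthest (r = -0.07). Pearson's r takes no account of size: the log2 difference was -0.09 for MAP7 and -2.38 for MAP1B.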

How the data were processed

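The authors deposited TPM values as 1 table with a row for each of 27914 gene symbols and a column for each library. The submitters' processing notes name hg19 and DESeq2. The sources used here do not give the aligner, the annotation, the quantification program, any filter or strandedness. Per the labels' protocols, libraries were made from total RNA with Illumina TruSeq reagents. Columns headed Control or expt were matched to the samples by group and replicate number. TPM was transformed to log2(TPM + 1). The 12096 genes that averaged 1 TPM or more were fitted with limma 3.58.1 in R 4.3.3 (empirical Bayes with a trend, two-sided), with Benjamini-Hochberg adjustment over all of them and a threshold of 0.05.

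The chosen genes, gene lists, tests and alternatives were chosen with earlier results of these data known. Named genes were the 10 chosen ones, up to 2 rising and 2 falling genes of each microtubule list past the threshold, or otherwise its most abundant gene, the most abundant gene of each marker list, the tested neighbours of the chosen genes, and the 5 genes most like MAP1B. Other genes were chosen after their values were seen. Coding sequences came from GENCODE v29 (GRCh38), the principal transcript of each gene, and shared windows were exact 50-base matches to transcripts of other genes. Gene order came from RefSeq (GRCh38.p14), which matched 11974 of 12096 tested genes and was used only for chromosomes and neighbours, since the builds differ.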

Additional observations from a re-analysis of the deposited data

How the results depend on the processing

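The log2 difference of MAP1B, a gene chosen by this contrast and so given with no test, depended on the pseudocount, at -2.95 with 0.1 and -1.39 with 5. Calls over all genes numbered 881 with the replicate block, 106 to 219 with 1 library left out, and 52 without both libraries numbered 2, an alternative chosen after seeing the data. Of the 122 tested microtubule list genes, 9 were called with the replicate block, a share similar to the 881 of 12096 over all tested genes. They were TUBA1A (limma adjusted p = 0.0105), TUBA4A (0.00737), MZT2A, DST, STMN1, FIGNL1, CCT6A, TTLL12 and DYNLL1. In these lists 2 genes were called with any 1 library left out and 1 without both libraries numbered 2. The block is no paired analysis from the design: the deviations of same-numbered samples correlated at 0.246, 0.269 and -0.015, and number 3 did not correlate best with itself. DST passed with median-ratio scaling (adjusted p = 0.0484) and with the block (0.00645). Uncalled point estimates changed sign: with 1 library left out, TUBB ranged from -0.05 to 0.03 (0.01 without control 3 and 0.03 without depleted 2), MAP7D1 from -0.16 to 0.06 (0.03 without control 3 and 0.06 without depleted 2) and GSK3A from -0.13 to 0.07 (0.07 without control 2). TUBB was also 0.02 with median-ratio scaling, and without both libraries numbered 2 TUBB was 0.01 and GSK3A 0.00. The cause was not tested. TPM keeps no depth, so counting error at the low values of MAP1A, TUBB2B and MAP1B in depleted cells is unknown.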

Other observations

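Among the tested neighbours of the chosen genes only B3GNT3 passed the test, where 2.19% of all tested genes did. Nothing is read from its place beside MAP1S. B3GNT3, a glycosyltransferase gene that follows MAP1S on chromosome 19, fell from 10.4 ± 0.730 to 4.02 ± 0.463 TPM (SD, n = 3; log2 difference -1.19, limma adjusted p = 0.00632), beside MAP1S at -0.07. COLGALT1, on the other side of MAP1S, averaged 82.6 and 93.1 TPM. None of the other tested neighbours of the chosen genes passed.

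Groups did not overlap for 14 of the 122 tested microtubule list genes (11.5%), a lower share than the 17.1% of all tested genes. Some of those that did not pass the adjusted threshold, chosen after their values were seen, are named here. DST, a spectraplakin that links keratin filaments to hemidesmosomes and in other isoforms binds microtubules, averaged 43.3 ± 3.95 TPM in controls and 70.2 ± 13.2 TPM in depleted cells (SD, n = 3; log2 difference 0.67, limma adjusted p = 0.0812, over the alternatives 0.00645 to 0.294). KIF5B, the kinesin-1 heavy chain, averaged 188 ± 10.2 and 161 ± 8.04 TPM (log2 difference -0.22, adjusted p = 0.357). MAP2, a dendritic relative in function of MAP1B, measured 1.83, 5.66 and 1.83 TPM in controls and 1.05, 1.62 and 1.25 TPM in depleted cells (log2 difference -0.71, adjusted p = 0.527), so that its control mean rested on replicate 2. TTLL7, a tubulin polyglutamylase, measured 5.54, 4.90 and 4.80 TPM and 4.58, 2.66 and 3.16 TPM (log2 difference -0.47, adjusted p = 0.411).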
